A study of Mus musculus with 18 samples.

Results

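Muscle-rich spots are the barcoded positions of mouse bladder sections where transcripts of 4 smooth muscle genes took the largest share of the captured RNA. On a Visium slide, RNA from a tissue section is caught on a grid of barcoded spots and counted as unique molecular identifiers (UMIs), and each spot is a small region that can hold several cells of different types. Spots with at least 500 UMIs were ranked within each section by the share of UMIs from Myh11, Actg2, Des and Cnn1, by the share from 6 urothelial genes (Krt5, Krt15, Upk1a, Upk1b, Upk2 and Upk3a) and by the share from 5 collagen and matrix genes (Col1a1, Col1a2, Col3a1, Dcn and Lum). A spot was taken as muscle-rich when it lay in the top 25% by the muscle share and that rank was the best of its 3 ranks. This gave 1021 of 4415 spots (23.1%). The remaining 3394 spots are called other spots. Collagen-rich spots (966) and urothelium-rich spots (971) were defined among them by the same rule on the other gene sets.

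The study is an atlas of the mouse urinary bladder with 18 samples of C57BL/6 mice. The 4 frozen sections of whole bladder enter here, 2 from mice of 22 months and 2 from mice of 14 months, all labelled male with a group size of 4. The labels do not say whether sections of the same age came from separate bladders, so p-values measure the spread between sections. Bulk libraries of intact whole bladder and of dissociated bladder (3 each, 12-month females) and 1 library of bladder nuclei (12 months, 2 females and 2 males) were used as other readouts.

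The wall of the bladder is built around the detrusor, a coat of smooth muscle bundles set in connective tissue. Its cells fill with bladder actin and myosin filaments, are excited mainly by acetylcholine through muscarinic receptors and by ATP through the P2X1 channel, and relax when calcium is pumped out of the cytoplasm and myosin is dephosphorylated. Myh11 is the smooth muscle myosin heavy chain, Actg2 the enteric-type smooth muscle actin, Des the intermediate filament protein desmin, and Cnn1 calponin, an actin-binding regulator of contraction.

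Muscle-rich spots numbered 319 of 1317 in 22-month section 1, 247 of 1038 in 22-month section 2, 194 of 937 in 14-month section 1 and 261 of 1123 in 14-month section 2. Values of the 4 sections are given in this order throughout. Of the spots in the top 25% by muscle share, 10, 12, 40 and 19 were not taken, because they ranked higher by collagen share. Spots under 500 UMIs numbered 4, 67, 2 and 0. The cut in the muscle share was 2.49%, 3.30%, 2.25% and 1.57% of UMIs. The highest share below the top 25% was 2.48%, 3.30%, 2.23% and 1.57%. The class is a range of a ranked share, not a cell type. The same barcode, which marks an array position, was used by 237 to 527 spots of any pair of sections, and 1 to 35 of these were muscle-rich in both.

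Muscle-rich spots held fewer UMIs than other spots, with medians of 13092, 15380, 14515 and 11203 UMIs against 17144, 18742, 17298 and 15667. Urothelium-rich spots held 32223 to 50153 at the median, so sums over other spots carry much urothelial RNA. In bulk tissue and in spots alike, more cells of a type and more RNA per cell cannot be told apart.

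The 4 ranking genes are given as a description, since they chose the spots. Together they made up 3.00%, 4.29%, 2.98% and 2.03% of the UMIs of muscle-rich spots. Actg2 stood at 11330, 17568, 10233 and 5520 counts per 1e6 UMIs, written CPM from here on. Des stood at 6489, 11900, 8362 and 5482, and Cnn1 at 6537, 8354, 7351 and 5747. Myh11 had 5638, 5034, 3817 and 3532 CPM. The mix of the 4 genes differed between sections. Actg2 gave 37.8%, 41.0% and 34.4% of their UMIs in the first 3 sections and 27.2% in 14-month section 2, where Cnn1 led with 28.3%. When each gene was left out of the ranking that chose the spots, its level moved little. For Myh11 it was 5528, 4994, 3785 and 3476 CPM, and for Actg2 10844, 17071, 9825 and 5298. Most spots chosen in this way were the same ones. In 22-month section 1 they were 301 of 317 without Myh11 and 280 of 319 without Actg2. Similar levels therefore follow from the choice, and nothing is read from them.

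Within muscle-rich spots the share of the 4 genes ranged from 2.49% to 4.45%, 3.30% to 6.51%, 2.25% to 4.27% and 1.57% to 2.88%. Across the spots of a section, Pearson's r between Actg2 and Cnn1 shares was 0.38, 0.32, 0.52 and 0.26, r between Des and Cnn1 was 0.23, 0.33, 0.48 and 0.40, and r between Actg2 and Des was -0.05, -0.17, 0.03 and -0.08. Choosing spots by the sum of these genes itself lowers such correlations, so nothing is read from their size. These are descriptions over 194 to 319 spots of 1 section each, which share that section's library and a fixed total per spot.

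**Figure D1:**
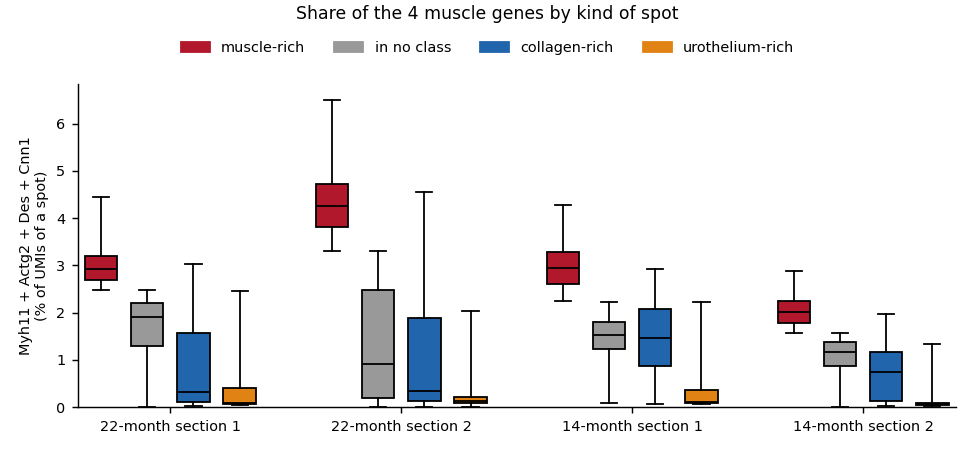
Share of UMIs from Myh11, Actg2, Des and Cnn1 per spot (y axis, percent) in the 4 sections, by kind of spot. Boxes show the quartiles with the median as a line, and whiskers run from the lowest to the highest spot. Muscle-rich spots lie above the section's cut by construction, and collagen-rich spots above the cut are those that ranked higher by collagen share.

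All other genes were tested on UMIs summed over muscle-rich and over other spots of each section, with the section as a block, by edgeR's quasi-likelihood test over 13900 genes. The 15 ranking genes were left out. Fold changes are fitted with TMM scaling and totals without the ranking genes, which the CPM levels do not have. Over 13519 genes the fitted value lay a median of 0.15 above the log2 ratio of the levels (0.24 over 12273 genes against collagen-rich spots), so a fold change near 0 can differ in sign from the levels beside it, as for Actg1 and Dag1 below. Of these genes 8614 differed at an adjusted p under 0.05 (62%), 4048 higher (29.1%) and 4566 lower (32.8%) in muscle-rich spots. With so many genes called, a called gene by itself is ordinary, and sizes carry more than counts. Transcripts of the cells that hold the ranking genes were selected along with them, so the test shows only that a difference repeated over the 4 sections. With every spot given equal weight (limma-trend on log2 of mean CPM plus 1), 6515 genes were called and 30.4% of them were higher, in place of 47.0%. That setting also changes the scaling, since it uses no TMM and its totals include the ranking genes. The median log2 fold change of all genes was -0.17 in that setting. Counts of list members with equal weight per spot, given below, carry this shift of all genes. A change in such a count is therefore not read as a result about the list.

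Among genes with a mean of at least 50 CPM in either kind of spot, the 12 largest rises were in Acta1, Actc1, Myl4, Tagln, Kcnf1, Kcnc4, Popdc2, Rbfox3, Ckm, Casq2, Ptprz1 and Wisp2. Acta1, the skeletal muscle actin, stood at 1881, 551, 1301 and 2416 CPM in muscle-rich spots and at 293, 53.2, 412 and 407 in other spots (log2 fold change 2.71, SE 0.27, adjusted p 0.00018). Every muscle-rich value lay above every value of other spots, although 22-month section 2 was far below the other sections in both. Actc1, the cardiac actin, had 204, 79.1, 114 and 101 against 38.7, 6.96, 25.9 and 23.3 CPM (log2 fold change 2.63, SE 0.23). Myl4, an atrial and embryonic myosin light chain, had 484, 639, 1222 and 560 against 80.4, 80.9, 258 and 116 (2.66, SE 0.13). Tagln, the actin-binding protein transgelin, had 19705, 22418, 16815 and 14141 against 3606, 2524, 4492 and 3014 (2.58, SE 0.19). These 4 genes did not overlap between the kinds of spot. They were picked for their large rises and the share over all genes was not counted, so nothing is read from this.

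Kcnf1, a potassium channel subunit that modifies other channels, was 175, 185, 197 and 76.4 CPM against 30.6, 18.7, 41.4 and 19.7 (log2 fold change 2.66, SE 0.22). Kcnc4, a voltage-gated potassium channel, was 53.3, 58.7, 60.6 and 31.7 against 9.52, 6.07, 15.8 and 8.03 (2.56, SE 0.23). Both had their lowest muscle-rich level in 14-month section 2. Popdc2, a membrane protein of heart and muscle that binds cyclic AMP, had 447, 390, 509 and 436 against 77.7, 40.6, 139 and 103 (2.57, SE 0.24). Rbfox3, a splicing factor used as a marker of neuronal nuclei, rose by 2.55 on the log2 scale (SE 0.43, adjusted p 0.0061), from 24.1, 3.30, 24.3 and 17.7 to 144, 52.0, 56.8 and 85.5 CPM. Ckm, the muscle creatine kinase that buffers ATP, rose by 2.53 (SE 0.23) and reached 709, 587, 539 and 636 CPM. Casq2, the cardiac form of the calcium-storage protein calsequestrin, rose by 2.54 (SE 0.17).

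Ptprz1 and Wisp2 rose as much but differed widely between sections. Ptprz1, a receptor-type tyrosine phosphatase, had 35.4, 198, 88.6 and 31.0 CPM in muscle-rich spots and 6.71, 22.8, 16.2 and 7.53 in other spots (log2 fold change 2.72, SE 0.17). Wisp2, a secreted matrix-associated protein, had 24.2, 135, 90.7 and 16.0 against 5.81, 18.0, 15.04 and 4.21 (2.63, SE 0.16). For both genes 22-month section 2 and 14-month section 1 were high and the other section of each age was low. In other spots, too, these were the high sections.

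**Figure D2:**
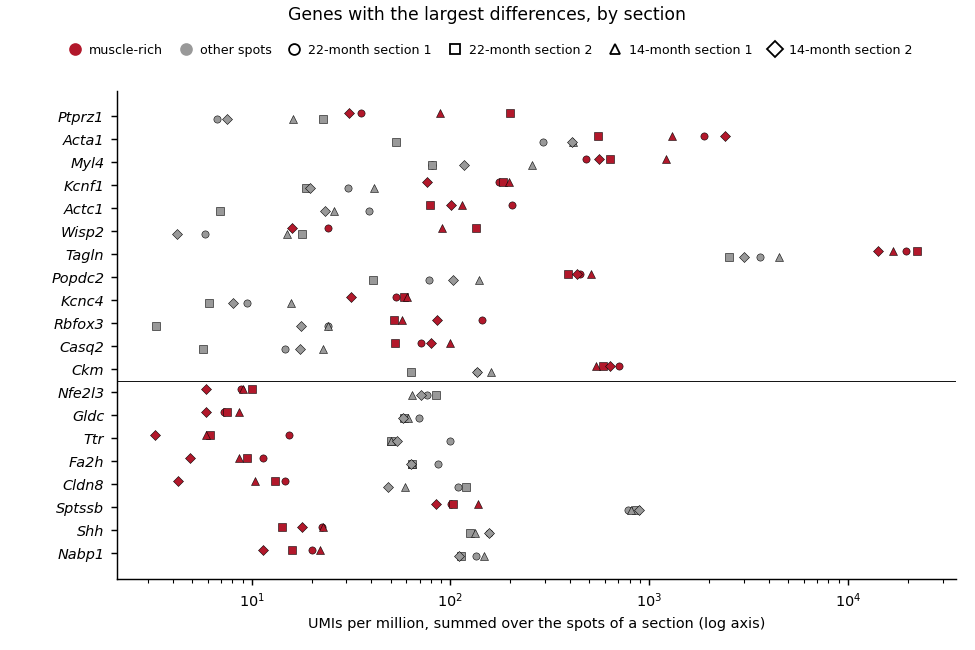
Level of the 12 genes with the largest rises and the 8 with the largest falls among those of at least 50 CPM, in CPM summed over the spots of a section (log axis). Red symbols are muscle-rich spots, grey symbols other spots, and the symbol shape gives the section. Within every section each gene above the line is higher and each gene below it lower in muscle-rich spots, and the muscle-rich levels of Ptprz1 and Wisp2 spread most between sections.

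The contractile list (filaments, their anchors and chaperones other than the ranking genes) had 37 of 38 members tested. Of these, 33 were higher and 1 lower, with a median log2 fold change of 2.23 where the median of all genes was -0.06. The count of higher members was 33 without each section in turn, and 32 with equal weight per spot. Summed over the list, levels were 103995, 111137, 93310 and 82423 CPM in muscle-rich spots and 24230, 16469, 30499 and 22731 in other spots. Acta2, the main vascular smooth muscle actin, named for its known role and not by rank, had 16036, 16517, 15975 and 12988 CPM. Pdlim3, which ties alpha-actinin to the Z-disc or dense body, rose by 2.51 (SE 0.24). Actg1, the cytoplasmic gamma-actin found in most cells, was 1212, 1446, 1631 and 1708 against 1268, 1216, 2178 and 1712 CPM and did not pass the test (log2 fold change 0.09, SE 0.11, adjusted p 0.52).

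Many muscle genes carry a CArG box, the DNA element bound by serum response factor and its partner myocardin. Promoters of RefSeq genes (build GRCm38.p6, 250 bases before to 50 after the start) were searched for the CArG box on both strands, which read the same for this motif. It was found in 535 of 32851 promoters (1.63%). Of the contractile list, 34 genes had 40 promoters in the table and 10 of these promoters (25%), from 9 genes, held it. Among the 332 genes with a called log2 fold change of 2 or more, 15 of 326 promoters held it (4.60%). Both Acta1 and Actc1, leading genes above, were among them, and they are shown with Myl9, the smooth muscle regulatory light chain on the same list. A box was also found for Actg1 of that list, which did not pass the test above (CCATATATGG, first base at -90, window not printed). The 250 bases before the start are printed in the direction of transcription, with the CArG box in capitals. The windows are chr8:123894776-123895025 (minus strand) for Acta1, chr2:114052876-114053125 (minus strand) for Actc1 and chr2:156775214-156775463 (plus strand) for Myl9. Counted from the start, the first base of the box lies at -73, -47 and -161, in that order.
Acta1: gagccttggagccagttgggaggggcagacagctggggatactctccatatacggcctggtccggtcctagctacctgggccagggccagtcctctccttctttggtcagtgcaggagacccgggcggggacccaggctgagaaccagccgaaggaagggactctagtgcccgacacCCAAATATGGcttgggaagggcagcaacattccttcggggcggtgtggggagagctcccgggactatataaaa
Actc1: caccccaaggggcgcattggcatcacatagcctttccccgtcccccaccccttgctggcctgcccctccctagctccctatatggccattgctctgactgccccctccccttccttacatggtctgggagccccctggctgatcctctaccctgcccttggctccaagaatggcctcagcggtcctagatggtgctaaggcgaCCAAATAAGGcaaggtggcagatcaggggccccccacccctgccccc
Myl9: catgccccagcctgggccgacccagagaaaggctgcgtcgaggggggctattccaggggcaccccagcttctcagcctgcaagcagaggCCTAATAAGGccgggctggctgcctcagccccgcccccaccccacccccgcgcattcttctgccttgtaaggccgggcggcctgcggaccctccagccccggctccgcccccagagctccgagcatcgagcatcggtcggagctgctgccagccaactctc
The table had 2 promoters for the 4 ranking genes, and the motif was in neither window. A match of letters is a description and was not tested as a binding site.

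The list of contraction signalling (kinases, phosphatases and cyclic nucleotide enzymes that set myosin phosphorylation) had 23 members tested, 17 higher and 0 lower, with a median log2 fold change of 1.36. Ppp1r14a, the inhibitor of myosin phosphatase known as CPI-17, stood at 966, 1004, 1368 and 1309 CPM against 238, 147, 397 and 346 (2.27, SE 0.16). Adcy5, an adenylyl cyclase, rose by 2.24 (SE 0.20) to 216, 195, 188 and 205 CPM. Ppp1r12b, a targeting subunit of myosin phosphatase, and Mrvi1, a substrate of cyclic GMP-dependent kinase, rose by 2.09 (SE 0.20) and 2.04 (SE 0.22).

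Receptor genes were called in both directions. Of 22 tested, 11 were higher, 4 lower and 7 not called, where 29.1% of all genes were higher and 32.8% lower. The share of lower receptors was thus below that of all genes. With equal weight per spot 8 were higher and 5 lower. Against collagen-rich spots 8 of 21 were higher, 4 lower and 9 not called, with a median of 0.22, where 24.6% of all genes were higher and 24.1% lower. Npy6r, a receptor of the neuropeptide Y family, had 72.4, 34.7, 35.7 and 17.0 CPM against 9.99, 3.19, 4.72 and 4.62 (log2 fold change 2.96, SE 0.21). Npy4r of the same family had 46.1, 44.2, 40.2 and 54.9 against 7.79, 4.503, 15.4 and 13.2 (2.43, SE 0.29). Npy1r did not pass the test, with 20.9, 29.9, 33.2 and 39.5 against 24.5, 22.4, 37.2 and 30.4 (0.25, SE 0.12), and it was lower than in collagen-rich spots (-0.55, SE 0.12, adjusted p 0.0026).

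P2rx1, the ATP-gated channel of detrusor muscle, had 2254, 1586, 1384 and 1590 CPM against 425, 190, 407 and 367 (2.48, SE 0.21). Of the muscarinic receptors, Chrm3 had 21.4, 36.6, 37.4 and 31.3 against 3.46, 4.03, 8.64 and 7.02 (2.64, SE 0.18). Chrm2, named for its known role, had 46.5, 67.9, 56.1 and 58.4 against 11.7, 7.54, 18.0 and 11.7 (2.41, SE 0.24). Levels of P2rx1, Chrm3 and Chrm2 did not overlap between muscle-rich and other spots. The share of all genes without such overlap was not counted, so this does not mark them out.

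Of 37 ion channels and calcium-handling genes tested, 29 were higher and 4 lower. Casq2 had 71.0, 52.5, 100.05 and 79.7 CPM against 14.8, 5.65, 22.8 and 17.5. Atp2b4, a plasma membrane calcium pump, rose by 2.41 (SE 0.19) to 405, 325, 277 and 271. Jph2, junctophilin, which holds the sarcoplasmic reticulum near the cell membrane, rose by 2.32 (SE 0.20) to 467, 508, 544 and 537. Trpm7, a widely used cation channel, did not pass the test (-0.09, SE 0.10).

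Of 21 regulators of smooth muscle identity tested, 17 were higher and 2 lower, with a median log2 fold change of 0.77, and 11 were higher with equal weight per spot. Myocd, the coactivator myocardin, was read at 8.84, 6.43, 8.66 and 9.79 CPM against 1.80, 0.94, 3.98 and 2.66 (2.09, SE 0.26). Carmn, a long noncoding RNA of smooth muscle, had 14.9, 13.4, 9.69 and 12.4 against 3.03, 2.57, 4.30 and 3.81 (2.06, SE 0.22). Tbx18 and Prrx1, transcription factors of mesenchyme, rose by 1.97 (SE 0.33) and 1.66 (SE 0.20). Tcf21, a transcription factor of fibroblast lineages, did not pass the test (0.19, SE 0.08, adjusted p 0.066).

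The dystrophin complex and caveolae, which tie the cytoskeleton to the membrane, had 16 of 19 tested members higher and 2 lower. Cav3, the muscle caveolin, had 50.5, 31.6, 40.2 and 33.0 CPM against 8.80, 4.71, 9.38 and 8.18 (2.49, SE 0.13). Sgca, a sarcoglycan best known from striated muscle, rose by 2.18 (SE 0.24), and Dtna, dystrobrevin, by 2.17 (SE 0.15). Dag1, dystroglycan, which epithelia also use, was 132, 136, 134 and 156 against 148, 137, 161 and 159 (0.03, SE 0.08) and did not pass the test.

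Of 30 basement membrane and integrin genes, 21 were higher and 7 lower. The integrin subunits Itga5, Itga7 and Itga9 rose by 2.38 (SE 0.18), 2.33 (SE 0.14) and 2.33 (SE 0.20). Itga7, a laminin receptor of muscle, had 194, 159, 182 and 133 CPM against 40.0, 24.3, 51.4 and 35.1. Lama3, a laminin chain of epithelia, fell by 2.29 (SE 0.22). Lama2, a laminin chain of muscle and fibroblast basement membranes, did not pass the test (0.11, SE 0.12) and was lower than in collagen-rich spots (-0.67, SE 0.13, adjusted p 0.0012).

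Of 28 interstitial matrix genes, 22 were higher and 1 lower than in other spots, but against collagen-rich spots 9 were higher, 5 lower and 14 not called (4 higher and 10 lower with equal weight per spot). In that comparison 24.6% of all genes were higher and 24.1% lower, and the list's median was 0.11. The counts against collagen-rich spots are therefore not read as a direction of the list. Postn, periostin, had 283, 314, 266 and 333 CPM against 59.0, 43.1, 95.04 and 96.3 in other spots and 58.0, 52.4, 137 and 125 in collagen-rich spots (log2 fold changes 2.24, SE 0.23, and 2.05, SE 0.32). Fn1, fibronectin, was 1141, 1659, 921 and 1197 against 391, 424, 376 and 449 (1.70, SE 0.12). Mfap4, a protein of elastic fibres, rose by 1.74 (SE 0.19). Ogn, the small proteoglycan osteoglycin, had 97.7, 207, 279 and 111 (1.89, SE 0.18). Tnc, tenascin C, had 98.2, 203, 198 and 91.4 against 152, 139, 108 and 105 and did not pass the test. In Ogn and Tnc, as in Ptprz1 and Wisp2, 22-month section 2 and 14-month section 1 were the high sections. Col6a3, a chain of collagen VI, was 99.6, 95.6, 99.4 and 96.3 in muscle-rich spots and lower there than in collagen-rich spots (-1.27, SE 0.21, adjusted p 0.0029).

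Genes of muscle energy metabolism were higher for 14 of 20 tested and lower for 2. Ckb, the brain-type creatine kinase, had 4836, 4150, 3744 and 4450 CPM (log2 fold change 2.37, SE 0.21), and Pygm, muscle glycogen phosphorylase, rose by 1.84 (SE 0.15). Of the 13 mitochondrially encoded genes, 12 were higher and 0 lower, with a median of 0.76, and 5 were higher with equal weight per spot. Their sum was 49054, 40648, 46327 and 46906 CPM against 33345, 33580, 38554 and 29116.

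**Figure D3:**
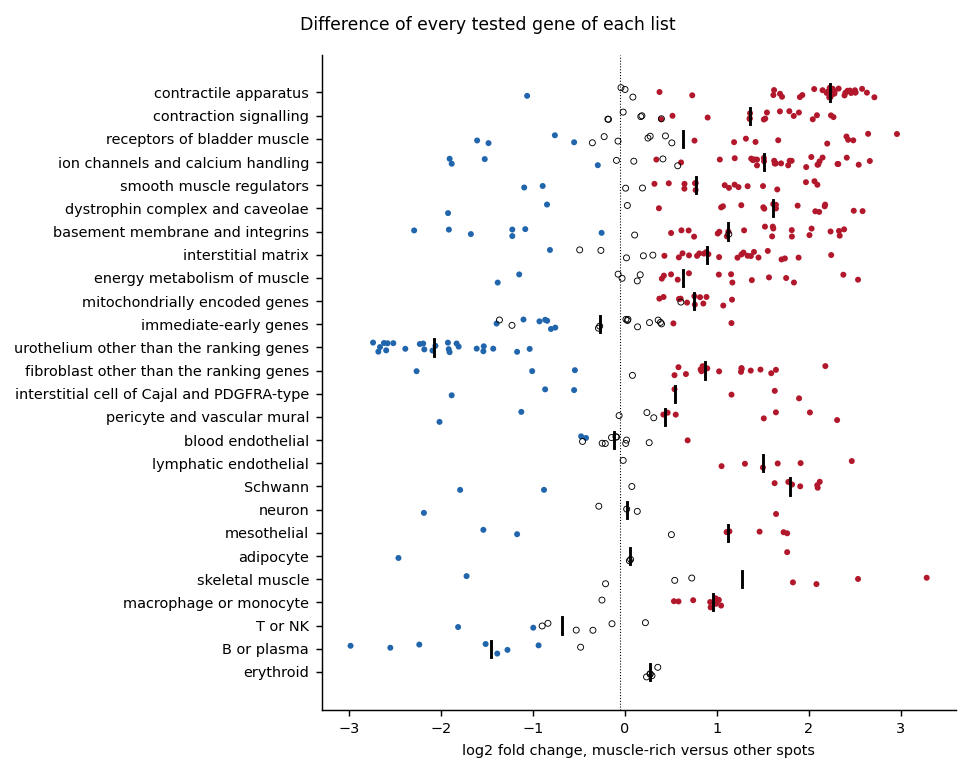
Fitted log2 fold change (x axis) of every tested gene in the 26 lists, muscle-rich against other spots. Red and blue points passed the test as higher and lower, open circles did not pass, black bars are list medians and the dotted line is the median of all genes (-0.06). The contractile, Schwann and dystrophin lists have the highest medians, and the urothelium list the lowest.

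The 8 largest falls among genes of at least 50 CPM were in genes of varied function. Nfe2l3, a transcription factor, stood at 8.84, 10.1, 9.001 and 5.88 CPM against 76.2, 85.1, 64.2 and 71.1 (log2 fold change -2.99, SE 0.12, adjusted p 9.1e-09). Gldc, a subunit of the glycine cleavage system, fell by 2.94 (SE 0.12), Ttr, the thyroid hormone carrier transthyretin, by 2.90 (SE 0.16), and Fa2h, a fatty acid hydroxylase, by 2.86 (SE 0.13). Cldn8, a tight junction protein, fell by 2.84 (SE 0.13), Sptssb, a subunit of sphingolipid synthesis, by 2.84 (SE 0.13), Shh, the hedgehog ligand made by urothelium, by 2.74 (SE 0.11), and Nabp1, a single-stranded DNA binding protein, by 2.72 (SE 0.11). All 24 genes of the urothelium list that are not ranking genes were lower, among them Epcam with 13.5, 13.4, 12.5 and 14.4 against 104, 103, 78.1 and 89.8 CPM. Their sum was still 4108, 4096, 5263 and 2692 CPM in muscle-rich spots, against 15635, 15501, 15429 and 14980.

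Markers of other cell types were present in muscle-rich spots at differing levels. Fibroblast genes other than the ranking genes summed to 8960, 9170, 9670 and 9859 CPM against 5950, 5183, 7251 and 6452 in other spots. Of 20 tested, 16 were higher and 3 lower, and with equal weight per spot 7 were higher and 4 lower. Gas1, a membrane protein of mesenchyme, rose by 2.18 (SE 0.25) and Clec3b, tetranectin, by 1.64 (SE 0.11). Car3, a carbonic anhydrase on the same list, fell, with 42.8, 26.8, 45.4 and 39.5 against 320, 144, 161 and 212 (-2.26, SE 0.15). Macrophage or monocyte genes were higher for 11 of 12, where 29.1% of all genes were, and for 4 of 12 with equal weight per spot. C1qa, a complement subunit, was at 327, 359, 331 and 505 against 165, 193, 203 and 270 (1.02, SE 0.08). Against collagen-rich spots 4 of 12 macrophage or monocyte genes were higher and 8 not called, where 24.6% of all genes were higher. The part of these cells in the muscle result was not tested.

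Blood endothelial genes were mostly not called against other spots (1 higher, 2 lower and 9 not called of 12, or 0 higher and 9 lower with equal weight per spot) and were lower for 11 of 12 against collagen-rich spots. Pecam1 had 22.3, 22.9, 34.3 and 27.8 CPM against 54.5, 70.2, 62.6 and 65.1 in collagen-rich spots (-1.01, SE 0.12, adjusted p 5.7e-05). Vwf, the platelet-binding protein of endothelium, did not pass the test against other spots (-0.10, SE 0.08) and Eng, endoglin, rose by 0.68 (SE 0.09), a call lost with equal weight per spot (adjusted p 0.22). Of 12 pericyte and vascular mural genes 7 were higher and 2 lower, or 4 and 3 with equal weight per spot. Mcam and Cspg4, also expressed by smooth muscle, rose by 2.31 (SE 0.22) and 2.01 (SE 0.20), Rgs5 fell by 2.01 (SE 0.12), and Pdgfrb did not pass the test (-0.06, SE 0.10). Of 7 lymphatic endothelial genes 6 were higher, led by the chemokine Ccl21a, whose near-identical gene copies may share reads (310, 281, 192 and 413 against 33.3, 51.1, 91.1 and 74.6, log2 fold change 2.47, SE 0.39). With equal weight per spot 2 were higher and 1 lower. Against collagen-rich spots 2 of 6 tested lymphatic genes were higher, 1 lower and 3 not called. Of the 12 mural genes 4 were higher and 4 lower there, where 24.6% and 24.1% of all genes were.

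Schwann cell genes, markers of nerve, were higher for 7 of 10 tested and lower for 2, with a median of 1.80, where 29.1% of all genes were higher. Against collagen-rich spots 6 of 9 were higher and 1 lower, where 24.6% and 24.1% of all genes were. Sox10, their lineage factor, had 14.9, 13.4, 10.0 and 13.4 CPM against 3.25, 1.41, 4.77 and 4.87 (2.09, SE 0.31). Cdh19, S100b and Ncam1 rose by 2.10 (SE 0.34), 1.91 (SE 0.21) and 2.12 (SE 0.23), while the list's sum, at 246, 198, 201 and 271 against 181, 144, 201 and 204, overlapped between the kinds of spot. Neuronal cell bodies lie outside the bladder wall in the mouse, and only 5 of 14 neuronal genes could be tested. Tubb3 rose by 1.64 (SE 0.42, adjusted p 0.0046), at 2.56, 1.12, 1.38 and 1.96 CPM, and was not called without 22-month section 1 or with equal weight per spot (adjusted p 0.0605 and 0.0546). Uchl1, a hydrolase abundant in neurons, fell by 2.18 (SE 0.12).

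Of 7 interstitial cell markers 4 were higher and 3 lower, where 29.1% and 32.8% of all genes were, or 2 and 2 with equal weight per spot. The list's sum was lower in every section, at 170, 185, 170 and 178 CPM against 226, 211, 207 and 231. The counts are therefore not read as a direction of the list. Kit, a receptor tyrosine kinase, had 28.9, 39.1, 20.8 and 18.0 CPM against 8.44, 5.97, 10.9 and 6.67 (1.89, SE 0.28), Kcnn3 rose by 1.63 (SE 0.22) and Etv1 by 1.16 (SE 0.19, adjusted p 0.058 with equal weight per spot), while the chloride channel Ano1 fell by 1.88 (SE 0.12). Mesothelial genes were higher for 5 of 8, with Msln, mesothelin, rising by 1.72 (SE 0.38, adjusted p 0.013, or 0.0876 for the top 10% of spots), and for 0 of 8 with equal weight per spot. The summed level of the mesothelial list, which holds Krt19, a keratin, and Upk3b, a uroplakin, was instead lower, at 552, 502, 645 and 484 CPM against 1421, 1121, 1635 and 1659. Against collagen-rich spots 0 of 7 tested mesothelial genes were higher and 3 lower. Of 10 adipocyte genes 4 to 6 were at 0 in the muscle-rich spots of a section and 4 were tested, with Plin4, a lipid droplet coat protein, higher by 1.76 (SE 0.21) and Fabp4 lower by 2.46 (SE 0.17). Of 8 tested skeletal muscle genes, 4 were higher and 1 lower. Myh2, a fast skeletal myosin, had 8.14, 33.0, 123 and 4.90 against 1.59, 3.51, 10.7 and 0.95 CPM (3.28, SE 0.19). It was higher in muscle-rich spots of every section, but its levels overlapped across sections. Tnnt3, skeletal troponin T, rose by 1.83 (SE 0.22).

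B or plasma cell genes were lower for 7 of 8 tested, where 32.8% of all genes were, including Igha (-2.98, SE 0.28) and Ighg2b (-2.23, SE 0.18). Counts were low. In muscle-rich spots of 14-month section 1 the list had 52 UMIs, and 7 of its 11 genes were at 0. Of 8 T or NK genes 2 were lower, among them Cd3g (-1.81, SE 0.34), and 6 were not called, a share of lower genes no larger than that over all genes. Igha, Ighg2b and Cd3g were not called without the section as a block. The sum of B or plasma cell genes was 187, 1794, 18.0 and 74.8 CPM in muscle-rich spots, so 22-month section 2 stood apart there, as it did in other spots with 651, 3912, 28.9 and 190. Hbb-bs, a haemoglobin chain, did not pass the test (0.29, SE 0.23), and its sign turned with equal weight per spot (-0.45).

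Compared with collagen-rich spots alone, the same test called 5992 of 12294 genes (48.7%), 3030 higher (24.6%) and 2962 lower (24.1%). The 2 comparisons share the muscle-rich sums. Of the contractile list 32 of 37 were higher and 3 lower. The leading rises at 50 CPM or more were Actc1 (log2 fold change 2.75, SE 0.31), Ooep (2.67, SE 0.32), Acta1 (2.63, SE 0.38), Bves (2.55, SE 0.32), Casq2 (2.54, SE 0.26) and Kcnf1 (2.54, SE 0.32). Ooep, best known from the oocyte, had 92.4, 115, 137 and 97.6 CPM against 10.8, 12.8, 43.3 and 25.1. Bves, a partner of Popdc2, had 146, 117, 116 and 124 against 21.3, 12.8, 43.0 and 31.9.

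The leading falls against collagen-rich spots, by the same minimum, were secreted signals, a matrix protein and an enzyme. Bmp5, a bone morphogenetic protein, had 10.2, 6.71, 3.46 and 4.90 CPM against 87.9, 82.7, 38.8 and 52.4 (-3.10, SE 0.14). Car3 fell by 3.07 (SE 0.14), Spon1, spondin 1, by 2.89 (SE 0.10), Cck, the peptide cholecystokinin, by 2.75 (SE 0.19), and the Wnt inhibitors Notum and Dkk2 by 2.75 (SE 0.16) and 2.69 (SE 0.18). Of 20 fibroblast list genes 6 were higher, 4 lower and 10 not called, with a median of 0.05. With equal weight per spot 1 was higher and 11 lower, where the median of all genes was -0.20, so these counts are not read as a direction of the list.

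When all spots of a section were split by muscle share into 4 equal bands (band 1 highest), the contractile list declined in steps in all 4 sections. It fell from 103749, 110716, 91433 and 81587 CPM in band 1 to 78622, 57720, 68309 and 58616 in band 2, and to 7567, 6416, 10983 and 7420 in band 4. Fibroblast genes instead were highest in band 3 in 3 of 4 sections (9585, 11866 and 11319, and 5460 in 22-month section 2), as were blood endothelial genes in all 4 (853, 567, 629 and 787). Macrophage or monocyte genes were lower in band 1 than in band 2 in every section, at 1669, 1773, 1950 and 2602 against 1823, 1999, 2103 and 2953. The interstitial matrix list was highest in band 1 in every section, at 6505, 9296, 8449 and 9756. The Schwann list was higher in band 2 than in band 1 in both 14-month sections (226 against 202, and 274 against 265). It was lower in band 2 in both 22-month sections (220 against 246, and 142 against 197). All these levels follow from the ranking for genes that share cells with it and are given without a test.

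**Figure D4:**
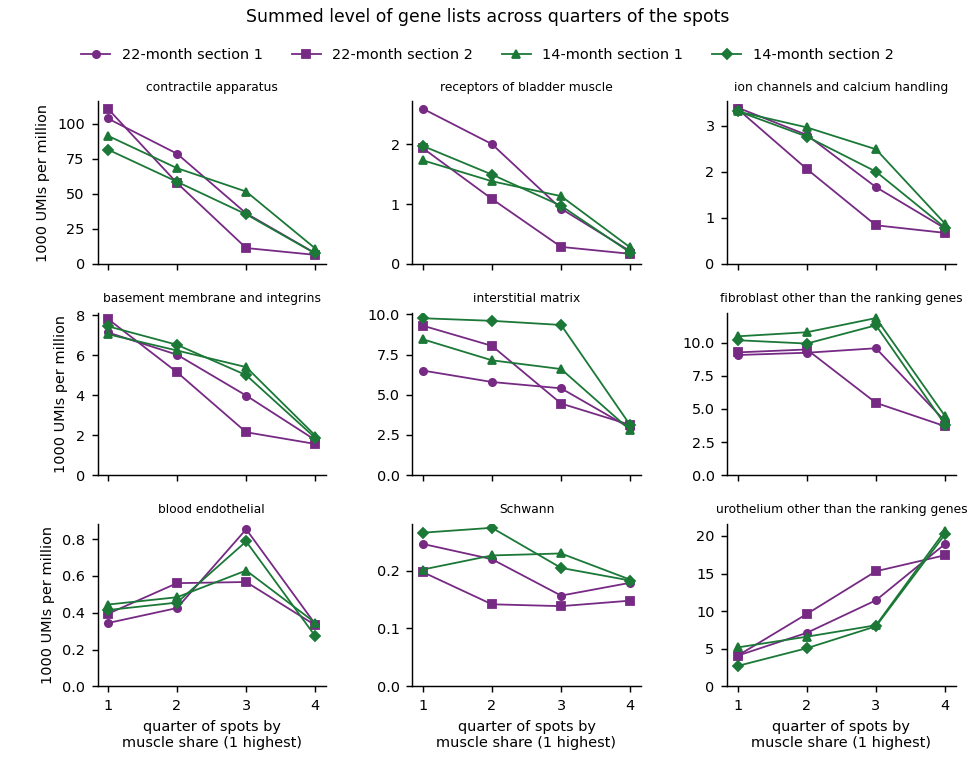
Summed level of 9 gene lists (y axis, CPM divided by 1000) in 4 equal bands of the spots ranked by muscle share (x axis, 1 highest). Purple lines are the 22-month and green lines the 14-month sections. Contractile, receptor and channel lists decline from band 1, blood endothelial genes peak in band 3, and urothelium genes rise to band 4.

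Ranked by the variance over the mean across the muscle-rich spots of a section, Hbb-bs, Ccl21a and Gm42418 were among the first 6 genes in every section. Hba-a1, Hba-a2, Gsn, Apoe, Tagln and Acta2 were among the first 20 in every section. Hbb-bs had a median of 1.21 UMIs per 10000 over the muscle-rich spots of 22-month section 1 and a highest spot of 232. Ccl21a had medians of 0.50, 0.66, 0.19 and 0.89 and highest spots of 74.2, 54.5, 28.5 and 82.4 per 10000. The contractile list itself took from 7.42% to 14.2%, 6.96% to 14.97%, 6.17% to 13.3% and 4.77% to 11.005% of a spot's UMIs. The spots were chosen by muscle genes, so its presence in every one of them follows from the choice. Acta1 ranked 5 in 14-month section 2 by the same measure, with a median of 20.8 and a highest spot of 73.8 per 10000.

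The 2 ages were compared over muscle-rich spots with 2 sections each. No gene of 11824 passed in edgeR's quasi-likelihood test (0%), while 687 had an unadjusted p under 0.05 and DESeq2 called 8. All lists therefore had 0 members called. The contractile list had a median log2 difference of 0.21 (22 against 14 months), and 14 of its 37 members had an unadjusted p under 0.05. The muscle share that the spots had to pass also differed between sections, as given above, and its part in these values was not tested. Leaving out 14-month section 2 gave 27 calls, leaving out 22-month section 1 or 14-month section 1 gave 16 each, and leaving out 22-month section 2 gave 0. Each of these fits has 1 section at one age, which is assumed to vary like the 2 of the other age. Sections of 1 age differed from each other in several genes, as the values of Ptprz1 and Acta1 above show.

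Whether the age difference was unlike in muscle-rich and other spots was tested as an interaction over 13900 genes. Atf3 and Cyr61 passed (2 genes, 0.0144%, with 1 or 0.00719% in each direction), and 1155 had an unadjusted p under 0.05. Atf3, a stress-induced transcription factor, had 4.89, 2.79, 45.4 and 2.29 CPM in muscle-rich spots and 2.85, 1.62, 227 and 4.62 in other spots (interaction 3.01, SE 0.39, adjusted p 0.025). Cyr61, a secreted protein induced by serum and stretch, had 57.0, 6.99, 479 and 42.4 against 48.5, 5.24, 135 and 11.1 (-1.57, SE 0.18, adjusted p 0.0097). Both genes were highest in 14-month section 1. Without it the Atf3 difference was 1.82 and no longer passed, and that of Cyr61 was -1.62 (adjusted p 9.0e-05). With 1 section left at 14 months, that fit takes the spread from the 22-month sections and does not show that either gene holds without the section left out. Leaving out 22-month section 1 gave 335 calls and leaving out 14-month section 2 gave 199.

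The 14-month section 1 was also high in immediate-early genes, which respond quickly to many stimuli. Their sum in muscle-rich spots was 1040, 871, 4409 and 1379 CPM, and in other spots 1274, 901, 4861 and 2475. Fosb had 1.86, 0.56, 80.3 and 1.96 in muscle-rich spots, and Nr4a1 23.3, 13.1, 429 and 25.1. Against other spots 2 of 21 members were higher and 7 lower, where 29.1% and 32.8% of all genes were, so the list is not read as lower, with Fosl2 falling by 1.39 (SE 0.13) and Jund rising by 1.16 (SE 0.12).

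In the bulk libraries, which played no part in the ranking, the genes with the largest rises in muscle-rich spots were mostly lower in dissociated than in intact bladder, and the gene lists that rose there differed in bulk. Among 16538 genes 9798 differed (59.2%), 4620 higher (27.9%) and 5178 lower (31.3%). Of the 332 genes with a called log2 fold change of 2 or more in muscle-rich spots, 319 were tested in bulk and 282 of these (88.4%) were lower in dissociated bladder, 10 higher. Of all genes called higher in muscle-rich spots, 3982 were tested in bulk, with 44.9% lower, 24.6% higher and a median log2 fold change of -0.22. Over all 13569 genes tested in both, 34.1% were lower and 27.7% higher. Of the genes lower by 2 or more in muscle-rich spots, 41.0% were lower in dissociated bladder and 18.1% higher. The contractile list had 31 of 37 lower and 4 higher, with a median log2 fold change of -2.51, and the ion channel list 25 of 40 lower and 10 higher. Energy metabolism had 15 of 20 lower and 3 higher (median -0.59), the dystrophin complex and caveolae 12 of 19 lower and 4 higher (median -0.43), and contraction signalling 13 of 24 lower and 5 higher (median -0.31). The receptor list had 7 of 27 lower and 10 higher (median 0.30), the regulators 5 of 21 lower and 8 higher, and basement membrane and integrin genes 8 of 30 lower and 10 higher. The interstitial matrix list went the other way, with 0 of 28 lower and 22 higher (median 0.92). Markers of other cell types moved in both directions. Adipocyte genes were lower for 10 of 10 (median -4.31), and Schwann cell genes for 7 of 11 with 1 higher (median -0.55). Fibroblast genes were higher for 16 of 19, blood endothelial genes for 10 of 12, lymphatic endothelial genes for 6 of 6, macrophage or monocyte genes for 12 of 12 and erythroid genes for 5 of 5, with 0 lower in each of these 5 lists. The part of these cells in the bulk difference was not tested.

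The 12 leading genes were all lower. Acta1 had 574, 460 and 406 CPM in intact bladder and 16.6, 18.3 and 5.91 in dissociated bladder (log2 fold change -5.03, SE 0.40, adjusted p 4.6e-05). Actc1 fell by 5.39 (SE 0.35) and Kcnf1 by 5.46 (SE 0.21). Of the receptors, P2rx1 went from 902, 941 and 831 to 41.4, 28.1 and 17.9 CPM (-4.82, SE 0.30). Npy6r fell by 5.28 (SE 0.43) and Chrm3 fell by 3.29 (SE 0.21). Postn, of the matrix list that was mostly higher, did not pass the test (-0.42, SE 0.16, adjusted p 0.052), although DESeq2 called it lower (adjusted p 0.038). All 26 immediate-early genes on the list were higher in dissociated bladder, with a median of 5.28. The bulk mice were 12-month females, whereas the sections were from males.

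**Figure D5:**
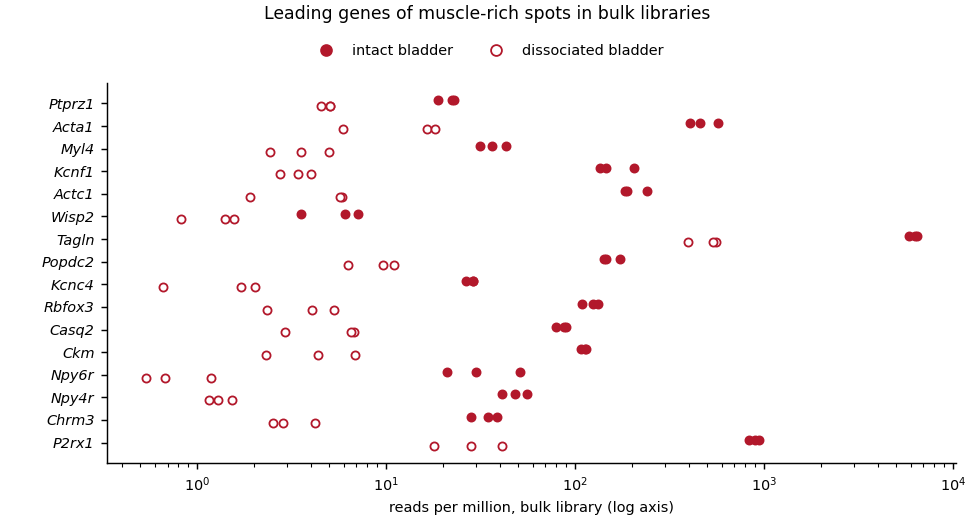
CPM (log axis) in bulk libraries for the 12 leading genes and 4 receptors of muscle-rich spots. Filled circles are the 3 libraries of intact bladder and open circles the 3 of dissociated bladder. For every gene shown, all intact libraries lie above all dissociated ones. The share of all bulk genes that separate in this way was not counted, and 31.3% were called lower in dissociated bladder.

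In the single nuclei library the same ranking rule applied to 3472 nuclei gave 784 nuclei led by the muscle genes, 659 by the collagen genes and 828 by the urothelial genes. No doublet caller was run, and the nuclei were picked by the same 4 muscle genes as the spots, so the library is not independent of the rule. With 1 library there is no test, and intervals (95%, exact Poisson) cover counting error only. The 4 genes took a median of 3.47% of UMIs in muscle-led, 0.621% in collagen-led and 0.277% in urothelium-led nuclei (median depths 885, 984 and 1390 UMIs), and 31 nuclei of all held no UMI of them. Free RNA was not removed, so levels outside muscle-led nuclei are not read as expression. Acta1 stood at 1996 CPM (1909 to 2087) in muscle-led nuclei, at 501 (451 to 556) in collagen-led and at 163 in urothelium-led nuclei. Casq2 had 86.0 (68.7 to 106) against 12.3 (5.64 to 23.4). Carmn had 2777 CPM in muscle-led nuclei against 859 and 33.1. Of the 332 genes with a log2 fold change of 2 or more in spots, 303 (91.3%) were highest in the muscle-led nuclei, as were 1983 of the 4048 called higher (49.0%) and 23.6% of all tested genes. Clec3b was not, with 81.9 in muscle-led and 645 in collagen-led nuclei, nor was Npy1r, with 21.2 and 282.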

How the data were processed

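UMI counts per spot of 4 sections and per nucleus of 1 nuclei library, and read counts of 6 bulk libraries, were used as deposited by the authors. Per the submitters' processing notes, the tools were bcl2fastq, Cell Ranger, Space Ranger, Subread and featureCounts with build mm10; versions are not given in the sources used here. Spots under 500 UMIs were removed, the remaining spots ranked, and UMIs summed per section and kind of spot. The 15 ranking genes were left out of library sizes and fits. Tests used edgeR 4.0.16 (TMM, filterByExpr, robust quasi-likelihood, two-sided, Benjamini-Hochberg 0.05) in R 4.3.3, with the section as a block except between ages and in bulk. The same fits were run on simulated counts with few changed genes, balanced in direction, and no differences between sections. The data are unlike this in these respects, so the simulation does not show how the tests perform here. Adjusted p-values in the text are from edgeR unless another tool is named. DESeq2 1.42.0 and limma 3.58.1 (log2 of CPM plus 1) served as alternatives, beside other normalization, filters, UMI minimum, class size, rank condition, block and left-out sections or libraries. Levels are CPM (UMIs or reads scaled to a total of 1e6 over all genes). UMIs per spot set the precision of single spots, and totals of 2888436 to 4297351 UMIs in muscle-rich spots that of the sums. Bulk totals were 23083752 to 68760791 reads.

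The genes named are the 12 largest rises and 8 largest falls among called genes with at least 50 CPM in the higher mean level and 1 direction in all 4 sections, 6 of each against collagen-rich spots, called interaction genes, and from each of 26 lists members among the 4 most changed called and the 2 most abundant not called. Acta2 and Chrm2 were added for their known roles. The members and lists were chosen with earlier results of these data known. The pairing of kinds of spot comes from the shared section. Single-cell libraries of dissociated bladder were not analysed here.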

Additional observations from a re-analysis of the deposited data

Results flagged for a closer look

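In each of 146 quantities the highest or lowest of the 4 sections was compared with the others by Dixon's criterion, and 18 had a section that stood apart. Chance alone flags about 1 in 20 such groups.

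In 14-month section 1 the summed immediate-early genes stood apart in muscle-rich spots with 4409 CPM, and so did Atf3 (45.4), Cyr61 (479), Fosb (80.3), Fosl2 (122), Jund (651) and Nr4a1 (429). These genes share 1 list apart from Cyr61, so they are not separate observations. In 22-month section 2 the B or plasma cell genes summed to 1794.5 CPM, with Ighg2b at 26.0, Cd3g at 1.96 and mt-Nd2, the lowest of the sections, at 2597. In 22-month section 1 Igha stood apart with 4.65 and Tnnt3 with 16.8 CPM. In 14-month section 2 Acta2 (12988) and the ranking gene Upk2 (91.1) were the lowest, and Dag1 (156), Kcnn3 (24.5) and Lama2 (49.95) the highest.

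The age difference in muscle-rich spots differed from that in other spots, by the interaction term of edgeR's quasi-likelihood test, for Atf3 (3.01 on the log2 scale) and for Cyr61 (-1.57). Both genes are among those that stood apart in 14-month section 1, and the part of that section's immediate-early level in the 2 calls was not tested beyond leaving it out.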

How the results depend on the processing

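Of 1568 alternative values for 139 results on single named genes, 1524 kept their direction and their side of the threshold, 15 lost a call, 18 gained a call and 11 changed sign. Genes called between muscle-rich and other spots numbered 8614, and 7263 to 8164 without 1 section; against collagen-rich spots they numbered 5992, and 4411 to 5967. DESeq2 called 7519 and 4168, and without the replicate block 7818 and 5041 were called. Equal weight per spot called 6515 and 4965, with 30.4% and 25.2% higher in place of 47.0% and 50.6%. In that setting the urothelium-rich spots weigh less among other spots, but they do not enter the comparison with collagen-rich spots. It also uses no TMM scaling, and its totals include the ranking genes. The median log2 fold change of all genes was -0.17 and -0.20, in place of -0.06 and -0.01. Which of these changes made the difference was not tested.

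Between ages, 0 calls became 4 in the top 10% of spots, 235 without a filter on low counts, 8 with DESeq2 and 0 to 27 without 1 section. The 2 interaction calls became 23 in the top 10%, 337 without a filter and 3 to 335 without 1 section; the cause was not tested. The top 10% held 437 spots by construction.

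Signs changed on leaving out 22-month section 2 for Actg1 (-0.019 to 0.206 over the sections left out), Dag1 (-0.011 to 0.0762) and Pdgfrb (-0.0859 to 0.012). They changed in the top 10% for Dag1 (-0.0499) and Trpm7 (0.0265), with equal weight per spot for Dag1 (-0.103), Hbb-bs (-0.45), Lama2 (-0.14), Npy1r (-0.28) and Tcf21 (-0.17), and without the replicate block for Nr4a1 (-0.0429). None of these genes was called in the reported fit. Without the block, Cd3g, Fosb, Igha, Ighg2b and Jund lost their calls, and Fosb also without 14-month section 1.

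In bulk, 9798 calls became 10011 with the replicate number as a block and 8128 to 9782 without 1 library. Deviations of same-numbered libraries correlated at 0.20, 0.34 and -0.07, so the numbers were not taken as pairs. The share of higher calls was 47.2%, and 51.3% with RLE size factors and 52.0% with DESeq2. Low counts limit genes of a few CPM, and 4 sections limit every test.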
